A study of Homo sapiens with 15 samples.

Results

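The comparison of 500 nM ZJ-101 with the DMSO vehicle used 6 of the 15 libraries of the study, 3 per group, and the 15233 of 59608 listed genes whose mean over the 15 libraries was at least 10 normalised reads. ZJ-101 was made by shortening superstolide A, a macrolide found in a marine sponge. MDA-MB-231 is an established line from a triple-negative breast cancer, and its cells were left for 72 h in ultra-low attachment 96-well plates to form spheroids. The plates then received ZJ-101 (500 nM) or 0.1% DMSO for 24 h, and the spheroids and loose cells of 1 plate were pooled as 1 replicate of poly(A) RNA-seq. The other doses of the study were 0.5, 5 and 50 nM, of which 50 nM is used at the end as the nearest dose. Just inside that minimum were AC020910.6 (mean 10 over the 15 libraries; 8.47 at 500 nM and 7.33 with DMSO) and BIRC6-AS1 (mean 10.01; 10.3 and 11.8). Just outside were AL662907.2 (mean 9.996; 8.05 and 13.3) and SNHG22 (mean 9.991; 10.4 and 9.10).

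Proteins of the cell surface, the lysosome, the Golgi and the extracellular matrix are made at the endoplasmic reticulum (ER). A hydrophobic signal at the N-terminus or a hydrophobic membrane span is recognised by the signal recognition particle, and the chain enters the ER lumen or membrane through the SEC61 translocon. There it is cut by signal peptidase, receives N-glycans at the letters N-X-S or N-X-T, folds with chaperones and disulfide isomerases, and leaves for the Golgi, where further sugars are added. The study links ZJ-101 to this endomembrane system, and the comparison asks which transcripts differed at the highest dose.

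The libraries at 500 nM held 8681413, 9425483 and 7773325 reads in genes, against 8220619, 9782428 and 8856807 with DMSO. VIM, the mesenchymal intermediate filament, had 17738, 17163 and 17219 normalised reads at 500 nM and 16990, 16256 and 16868 with DMSO. The surface receptor CD44 was also abundant, as usual for this line, but was called lower (log2 fold change -0.26). Both belong to a list of 10 mesenchymal line markers, of which 9 were tested, 5 called higher and 4 lower. The sum over that list was 84313.3, 80315.8 and 82574.3 at 500 nM, against 97787.7, 93627.6 and 95818.3 with DMSO. FN1, a matrix gene of that list, fell from a mean of 55640 with DMSO to 37051 at 500 nM, more than the sum did. Replicate 1 at 500 nM stood apart in transcripts of fibroblasts. The sum over a list of 16 fibroblast markers was 4214.1, 718.8 and 818.7 at 500 nM, against 748.1, 699.1 and 713.2 with DMSO. Replicate 2 at 500 nM thus lay within the DMSO range. Over COL3A1, DCN, POSTN, THY1 and SFRP2 alone, the sum was 368.8, 35.9 and 39.0 at 500 nM, against 1.1, 0.0 and 2.0 with DMSO. These members were picked because they were scarce with DMSO, so the low DMSO sums follow from that choice. At 500 nM 1, 4 and 2 of the 16 markers were at 0, and with DMSO 7 in each library. COL1A1, a fibrillar collagen chain, had 2302, 216 and 232 normalised reads at 500 nM and 138, 139 and 140 with DMSO and was not called. Values without replicate 1 at 500 nM and 2 similar libraries at other doses are given for some of the results that they move. Of the 9 tested fibroblast markers, 0 were called higher and 1 lower with all libraries. Without those 3 libraries 2 were called higher, COL3A1 (log2 fold change 3.63) and DCN (2.75), and 1 lower. The part of these transcripts in the other results was not tested. In bulk RNA, fewer cells of a type and less RNA per cell cannot be told apart.

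Of all tested genes, 32.4% were called, meaning an adjusted p below 0.05 in limma over all 15233 genes: 2462 were higher at 500 nM (16.2%) and 2471 were lower (16.2%). The median log2 fold change was 0.0. Changes of at least 2-fold were fewer, 104 higher (0.683% of tested genes) and 306 lower (2.01%). In the plot of all genes most called genes lie close to 0, while SLC3A2, AGR2 and SPNS2 stand out above and ID1, ID3 and PLEKHG4B below. Counted in reads rather than in folds, the largest gains included SLC3A2, the glycolytic enzyme ENO1, the elongation factor EEF1A1, the actins ACTB and ACTG1, the non-muscle myosin MYH9, the chromatin protein HMGA1 and CANX, an ER membrane chaperone. HMGA1 had 16763, 16947 and 17193 normalised reads at 500 nM, against 11442, 11465 and 11443 with DMSO, and the groups did not overlap. The largest losses included the matrix proteins FN1, AGRN and COL18A1, the growth factor CSF1, the IGF-binding protein IGFBP4, the amyloid precursor-like protein APLP2, the lysosomal protease CTSD, the desaturase SCD and the ER chaperone CALR. IGFBP4 had 11899, 11772 and 11321 normalised reads at 500 nM, against 18857, 17690 and 18026 with DMSO (log2 fold change -0.64). Apart from SCD, an enzyme of the ER membrane, the genes named here as losses encode proteins of the secretory route or the cell surface. FLNA, MT-RNR2 and AC068580.3 were also among the largest gains and losses in reads. Their values are not given here, so the description covers the named losses only and not all of the largest.

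**Figure D1:**
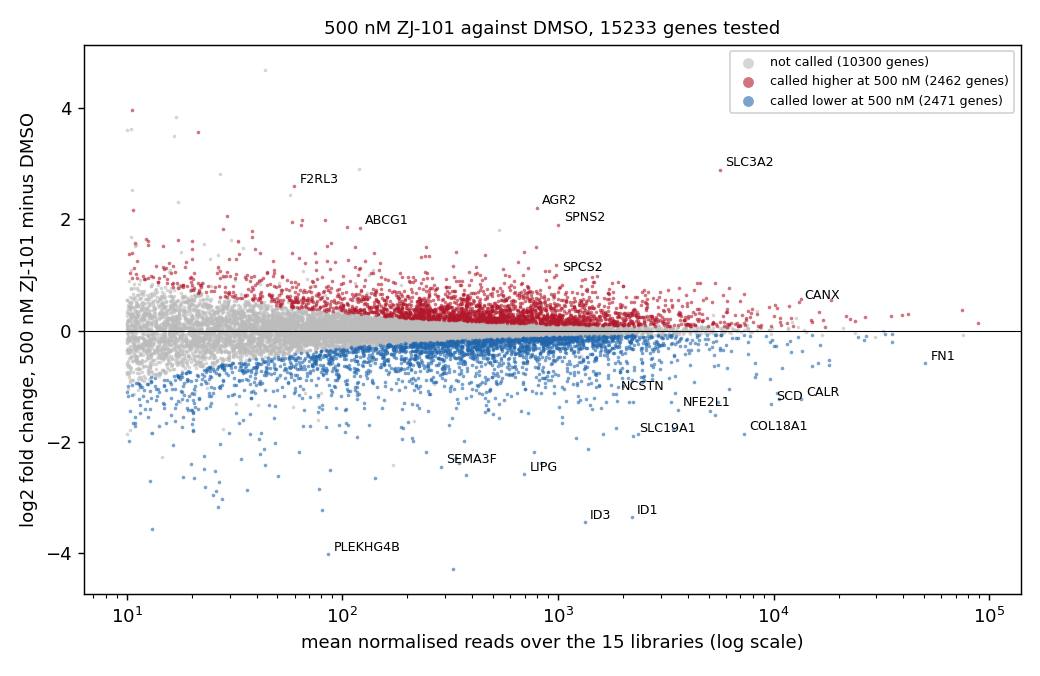
Log2 fold change (500 nM ZJ-101 minus DMSO) of each of the 15233 tested genes against its mean normalised reads over the 15 libraries (log scale), with called genes in red (2462 higher) and blue (2471 lower). SLC3A2 stands out at the top among abundant genes, and ID1 and ID3 stand well below the other genes of their level.

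The called genes differed in the kind of protein they encode. A hydrophobic stretch was counted as 19 residues with a mean Kyte-Doolittle hydropathy of at least 1.6, a rough measure of a membrane span, and 12015 tested proteins could be scored. Of 8036 proteins with no such stretch, 14.7% were encoded by genes called higher and 15.1% by genes called lower. Of 2113 with 1 stretch, 18.2% were higher and 26.5% lower, and of 1022 with 2 to 3 stretches 26.5% were higher and 25.7% lower. Of 593 with 4 to 7 stretches, 41.8% were higher and 11.6% lower. Of 251 with 8 or more, 42.2% were higher and 16.3% lower. Transcripts of proteins with 4 or more stretches were thus more often higher than lower, and those of proteins with 1 stretch more often lower than higher. With 2 to 3 stretches the 2 shares were close. Stretches were counted over the whole protein, so a single stretch may also be a signal at the N-terminus. These are descriptions of gene groups, with no test, and the classes were set after values had been seen.

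A signal-like N-terminus was counted as 12 residues with a mean hydropathy of at least 1.8 within the first 35. It was found in 136 of the 243 protein-coding genes that were at least 2-fold lower (56.0%), in 31 of the 85 that were at least 2-fold higher (36.5%), and in 17.4% of all scored proteins. Among proteins with such an N-terminus and at most 2 stretches, the share of genes called lower was larger with 3 or more N-glycosylation sequences than with fewer. With none, 27.7% of 325 genes were higher and 19.1% lower, and with 1 to 2 sequences 22.8% of 513 were higher and 30.8% lower. With 3 to 5 sequences, 15.3% of 419 were higher and 45.1% lower, and with 6 or more 14.1% of 370 were higher and 42.7% lower (median log2 fold change -0.17). Among the 1002 proteins that had 6 or more sequences but neither a stretch nor such an N-terminus, the shares were 15.1% higher and 16.2% lower. Proteins with more sequences are also longer, and length was not separated from the count of sequences here.

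**Figure D2:**
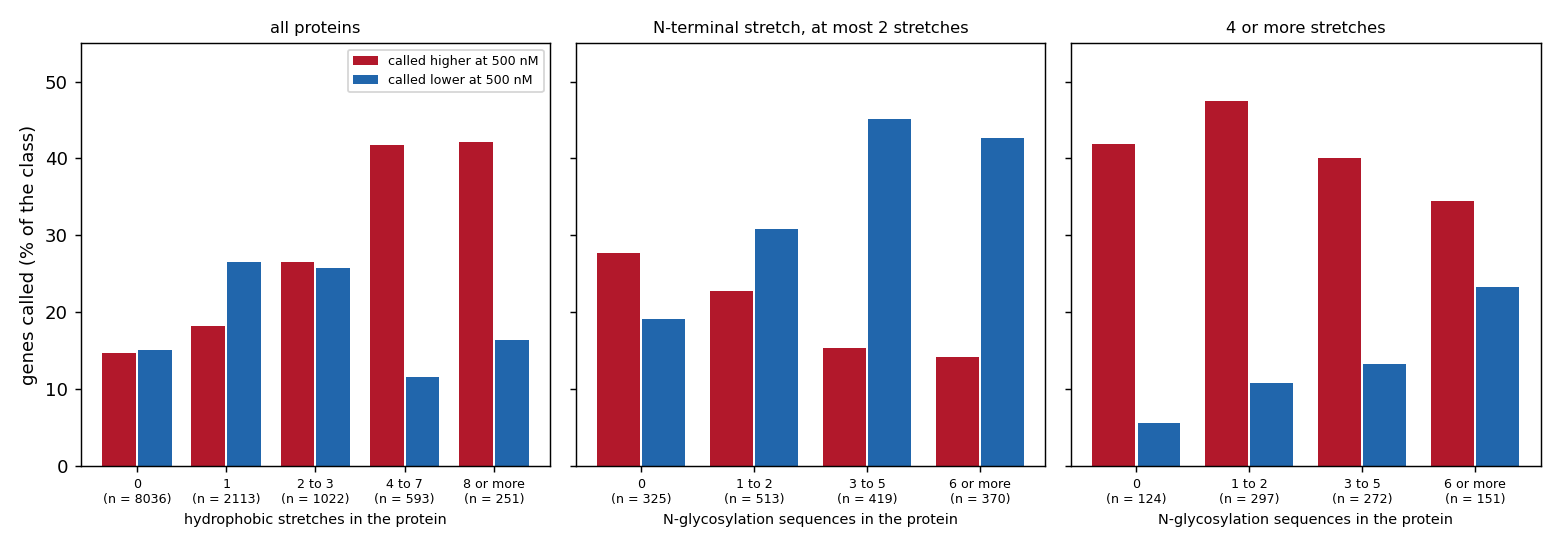
Share of genes (%) called higher (red) and lower (blue) at 500 nM against DMSO, by the number of hydrophobic stretches in the protein (left) and by the number of N-glycosylation sequences in proteins with an N-terminal stretch and at most 2 stretches (middle) or with 4 or more stretches (right); n is the number of genes in the class. The red bars exceed the blue ones for 4 or more stretches, and the blue bars exceed the red ones for N-terminal stretches with 3 or more sequences.

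Subunits of single protein complexes differed in direction. Gamma-secretase, the protease that cuts NOTCH receptors within the membrane, has a large glycosylated subunit, nicastrin (NCSTN), and several subunits that span the membrane many times. NCSTN (chromosome 1, 160343294 to 160358952) had 1011, 980 and 995 normalised reads at 500 nM and 2241, 2131 and 2193 with DMSO. Every library at 500 nM was thus below every DMSO library, with a log2 fold change of -1.14 ± 0.04 (SE, adjusted p = 5.16e-49). PSEN2, a catalytic subunit, had 512, 495 and 549 at 500 nM and 430, 375 and 356 with DMSO, a log2 fold change of 0.43 ± 0.07 (adjusted p = 7.36e-08). APH1A (0.27) and APH1B (0.42), which have 7 hydrophobic stretches each like PSEN2, were also called higher, and PSENEN, whose exons share 31.3% of their length with a gene on the opposite strand, was not called (adjusted p = 0.0963). NCSTN carries 16 N-glycosylation sequences and PSEN2 carries 1.

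The ER membrane protein complex, which inserts membrane spans, also held subunits of both directions, though none of them has more than 2 hydrophobic stretches. EMC1, its largest lumenal subunit, had 680, 644 and 652 normalised reads at 500 nM and 1233, 1204 and 1155 with DMSO (log2 fold change -0.86 ± 0.04), and EMC10, also with a lumenal part, fell by 0.53 on the log2 scale. EMC3, a subunit of the insertion groove, had 978, 986 and 933 at 500 nM and 598, 594 and 552 with DMSO (0.73 ± 0.05), and EMC7 and EMC4 were called higher with 0.48 and 0.30. MMGT1 was called higher with 0.29 as well, while EMC6, EMC8 and EMC9 were not called. In the GPI transamidase, which attaches lipid anchors to proteins in the ER, PIGS fell (-0.86) and PIGT fell (-0.26), whereas PIGU rose (0.61) and PIGK was not called. All 5 genes of signal peptidase were called higher, and SPCS2 was the highest of them. SPCS2 had 1428, 1411 and 1366 normalised reads at 500 nM and 675, 705 and 722 with DMSO (adjusted p = 7.97e-36). The plot of the 4 complexes shows that members of one complex lay on both sides of 0 in 3 of them. The grouping into complexes was made after values had been seen.

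**Figure D3:**
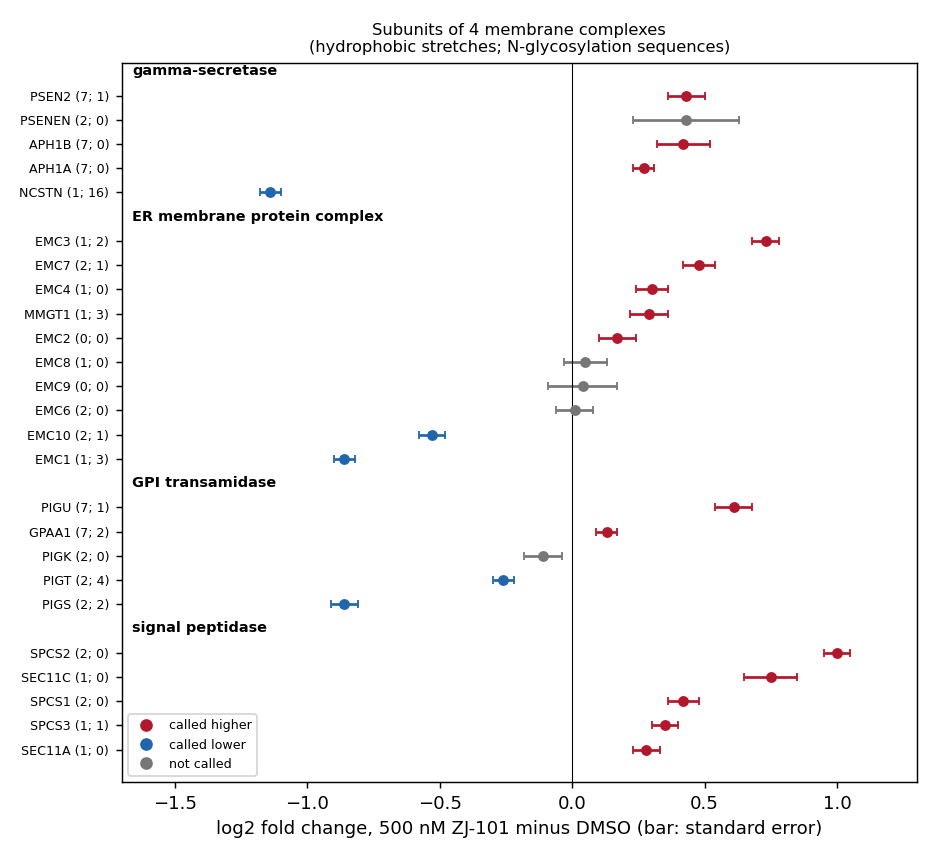
Log2 fold change (500 nM ZJ-101 minus DMSO, with its standard error) of subunits of gamma-secretase, the ER membrane protein complex, the GPI transamidase and signal peptidase, with the number of hydrophobic stretches and of N-glycosylation sequences in brackets. NCSTN, EMC1, EMC10, PIGS and PIGT lie below 0 in blue, while the other called subunits shown lie above 0 in red.

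Genes of the entry into the ER rose widely. Of 43 tested genes of the ER translocon and membrane insertion, 28 were called higher and 4 lower (median log2 fold change 0.30, against 0.0 over all tested genes). Over all tested genes 16.2% were called each way, the share to set beside this list and those that follow. SEC61A1, the channel itself, had 5444, 5515 and 5459 normalised reads at 500 nM and 3317, 3216 and 3338 with DMSO (adjusted p = 8.62e-43). SSR3, a subunit of the translocon-associated complex, had 1830, 1854 and 1922 at 500 nM and 916, 997 and 1042 with DMSO, and SRPRB, the membrane anchor of the signal recognition particle receptor, had 554, 605 and 516 against 290, 300 and 301. Both groups of libraries were apart in these genes. The exons of SSR3 and SRPRB share 20.8% and 18.4% of their length with genes on the opposite strand. The strand setting of the counting is not given in the sources used here. The partners SEC61B (0.41), SEC61G (0.40), SEC62 (0.57), SEC63 (0.66), TRAM1 (0.80) and TMCO1 (0.79) were called higher too. EMC1, EMC10, the tail-anchor targeting ATPase GET3 (-0.14) and NCLN (-0.14) were the 4 that fell. The call of GET3 was lost in DESeq2 (-0.14), and without replicate 1 of DMSO (-0.09) or replicate 3 at 500 nM (-0.12). That of NCLN was lost without replicate 3 of either group (-0.11).

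Inside the lumen the balance was reversed. Of 48 tested disulfide isomerases, ER lectins and related chaperones, 13 were called higher and 26 lower (median -0.14). CALR, a soluble calcium-binding lectin, had 7134, 7412 and 7202 normalised reads at 500 nM and 17289, 16826 and 17070 with DMSO (log2 fold change -1.23 ± 0.02). The calcium-binding proteins CALU and RCN3, the prolyl isomerase FKBP9 and the sulfhydryl oxidase QSOX1 also fell. QSOX1, for example, had 2705, 2824 and 2784 at 500 nM and 5502, 4990 and 5323 with DMSO. Among the 13 that rose, several are anchored in the membrane, such as CANX, TMX2, DNAJC1 and SELENOS. CANX had 14686, 15443 and 15515 at 500 nM and 10717, 10796 and 10649 with DMSO. SELENOS, a selenoprotein of ER retrotranslocation, had 661, 651 and 665 against 341, 313 and 373. The isomerase AGR2 had 1869, 1919 and 1868 at 500 nM and 391, 412 and 425 with DMSO, and the soluble co-chaperone DNAJB9 had 709, 744 and 806 against 296, 310 and 270, so not all of the risers are membrane proteins. TXNDC5 was also called higher, with a log2 fold change of 1.10, although its libraries spread widely at 500 nM (120, 109 and 61.9, against 34.8, 50.6 and 45.2 with DMSO).

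Promoters of these chaperones were read for the ER stress response element, the letters CCAAT and CCACG with any 9 bases between them, read on either strand, bound by ATF6 together with NF-Y. The windows are RefSeq promoters on GRCh38.p14, 250 bases before to 50 after the start of the gene. The element lay in 4 of 23 windows of genes called lower and in 1 of 12 of genes called higher, and in 1 of 7 of genes not called. Over all tested protein-coding genes with a window its share was 0.14%, and over all 27305 windows 0.08%. The sequences below show that a gene that rose and genes that fell share these letters, which are in capitals within windows printed 5′ to 3′ on the strand of the gene.
CALR (chr19:12938379-12938407, plus strand, log2 fold change -1.23): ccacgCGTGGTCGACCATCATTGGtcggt
HSPA5 (chr9:125241386-125241414, minus strand, -0.16): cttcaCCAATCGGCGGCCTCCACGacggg
HSP90B1 (chr12:103930211-103930239, plus strand, -0.21): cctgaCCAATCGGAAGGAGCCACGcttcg
CANX (chr5:179698773-179698801, plus strand, 0.50): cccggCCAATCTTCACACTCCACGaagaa
The letters CCAAT alone lay in 9 of 12 windows of genes called higher and in 16 of 23 of genes called lower. Their share over all tested protein-coding genes with a window was 36.4%. A match is a description of letters and not a sign of binding. HSPA5, the main ER chaperone, had 8407, 8439 and 8278 normalised reads at 500 nM and 9469, 9315 and 9324 with DMSO, a small fall beside that of CALR.

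ER-associated degradation, which returns misfolded proteins to the cytosol, gave 16 higher and 11 lower of 35 tested genes (median 0.14). The genes that rose include the ubiquitin ligase SYVN1 (0.44), the ubiquitin-conjugating enzyme UBE2J1 (0.55) and the lipid droplet protein AUP1 (0.65). DDRGK1, which anchors the UFM1 ligase to the ER, had 1377, 1378 and 1305 normalised reads at 500 nM and 724, 569 and 660 with DMSO (1.06 ± 0.06). The lumenal mannosidase-like EDEM3 (-0.83) and the lumenal lectin ERLEC1 (-0.64) fell, as did the membrane proteins ERLIN2 (-0.66) and SEL1L (-0.32). Of 28 tested genes of GPI anchor synthesis, 10 were higher and 3 lower (median 0.09), and the 3 were PIGS, PIGT and PGAP6.

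Of 40 tested sialyl-, fucosyl- and galactosyltransferases and related enzymes, 0 were called higher and 20 lower in limma (median -0.27); at an unadjusted p below 0.05 there was 1 higher, ST3GAL3, and edgeR and DESeq2 called 0 higher. In limma 1 gene was called higher without replicate 1 of DMSO, and 1, ST3GAL3, without replicate 2. POFUT2, which fucosylates thrombospondin repeats, had 503, 443 and 446 normalised reads at 500 nM and 1042, 989 and 1014 with DMSO (log2 fold change -1.13 ± 0.05, adjusted p = 2.03e-36). ST3GAL5, the synthase of ganglioside GM3, had 304, 324 and 275 against 595, 626 and 657. MGAT5, which starts a branch of complex N-glycans, had 433, 383 and 456 against 749, 736 and 729. In all 3 genes the libraries at 500 nM lay below those with DMSO. POFUT1, which fucosylates NOTCH receptors, fell by 0.65 on the log2 scale, and B4GALT5, a lactosylceramide synthase, fell by 0.67. Most enzymes of the list have a single membrane span and a lumenal catalytic part, and POFUT1 and POFUT2 are soluble in the ER lumen.

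Of 38 tested genes of the proteasome and its regulators, 0 were called higher and 22 lower in limma (median -0.17), with 0 higher also at an unadjusted p below 0.05, in edgeR and in DESeq2. NFE2L1, the ER-anchored factor that drives proteasome genes, had the largest change, with 1741, 1779 and 1749 normalised reads at 500 nM and 4813, 4612 and 4718 with DMSO (log2 fold change -1.42 ± 0.03, adjusted p = 1.46e-65, chromosome 17, 48048329 to 48061545). Its relative NFE2L2 fell by 0.33 on the log2 scale, with 24.8% of its exons overlapping a gene on the opposite strand. The subunits of the core and the cap changed less. PSMB1, of the core ring, had 1254, 1235 and 1189 normalised reads at 500 nM and 1539, 1453 and 1579 with DMSO, and the ATPase PSMC6 had 539, 530 and 514 against 685, 654 and 704. The groups did not overlap in either gene.

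Many genes of amino acid supply rose. Cells short of amino acids, or with stress in the ER, phosphorylate eIF2 and translate the transcription factor ATF4, which raises transporters, tRNA synthetases and enzymes of serine and asparagine synthesis. Promoters of these genes were read for the composite element of ATF4 and C/EBP, the letters TGATGNAA on either strand. The genes came from 4 lists of amino acid transporters, cytosolic tRNA synthetases and synthesis enzymes. The element lay in 10 of the 31 windows of their genes called higher and in 2 of the 25 windows of their other tested genes. Those 2 were NARS1 and CARS1. CARS1 had the largest log2 fold change of the cytosolic tRNA synthetases, 0.82, but was not called. The share of the element was 1.66% over all tested protein-coding genes with a window and 1.9% over all of those called higher. In the sequences, printed 5′ to 3′ on the strand of the gene, capitals mark the element.
SLC3A2 (chr11:62881725-62881748, plus strand, log2 fold change 2.89): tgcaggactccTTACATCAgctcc
SLC7A1 (chr13:29595663-29595692, minus strand, 0.70): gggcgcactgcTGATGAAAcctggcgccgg
AARS1 (chr16:70289675-70289704, minus strand, 0.44): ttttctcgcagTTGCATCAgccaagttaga
TARS1 (chr5:33440956-33440985, plus strand, 0.48): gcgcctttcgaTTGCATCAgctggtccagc
MARS1 (chr12:57488053-57488082, plus strand, 0.37): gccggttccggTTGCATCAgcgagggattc
NARS1 (chr18:57621804-57621833, minus strand, 0.08, not called): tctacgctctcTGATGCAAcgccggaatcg
NARS1 was called higher when the libraries rich in fibroblast transcripts were left out (0.12). The element was searched because of the earlier results, and the share has no test. Elements of other factors were read too, and most of them are not reported here.

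Of 22 tested amino acid transporters, 14 were called higher and 1 lower (median 0.26). SLC3A2, the heavy chain that brings several light chains to the surface, had 13465, 13555 and 13680 normalised reads at 500 nM and 1921, 1845 and 1736 with DMSO, the largest change of the list. Its light chain for large neutral amino acids, SLC7A5, had 3508, 3493 and 3612 against 2542, 2255 and 2297. The cystine light chain SLC7A11 was the 1 that fell, with 348, 359 and 366 at 500 nM and 448, 472 and 434 with DMSO. Partners of 1 heavy chain therefore differed in direction. The glycine transporter SLC6A9 (0.97) and the neutral amino acid transporter SLC1A4 (0.89) rose further than SLC7A5 (0.58).

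Of 22 tested cytosolic tRNA synthetase genes, 13 were higher and 1 lower (median 0.20), whereas of 16 mitochondrial ones 0 were higher and 2 lower (AARS2 and IARS2, median -0.02). At an unadjusted p below 0.05, 2 mitochondrial genes were higher, edgeR called 1 higher and DESeq2 0, and limma without replicate 1 of DMSO called 1 higher and 1 lower, AARS2 (-0.21) no longer being called. TARS1, for threonine, had 3031, 3064 and 3218 normalised reads at 500 nM and 2201, 2315 and 2171 with DMSO. The cytosolic IARS1 rose (0.30) and the mitochondrial IARS2 fell (-0.16), a difference between the compartments for the same amino acid. RARS1 was the cytosolic gene that was lower (-0.15), a call that was lost without replicate 2 of DMSO (-0.13). Among 14 enzymes of serine, glycine and one-carbon metabolism 8 were higher and 1 lower (median 0.18). PSAT1, of serine synthesis, had 532, 514 and 527 at 500 nM and 294, 267 and 282 with DMSO. Proline synthesis went the other way: PYCR1 fell (-0.58) and ALDH18A1 fell (-0.39). Of 13 enzymes of asparagine, glutamine and proline metabolism 2 were higher and 5 lower (median -0.01). The number higher was near the 16.2% of all tested genes. In control of translation, 12 of 29 genes were higher and 2 lower (median 0.09), with the eIF2 phosphatase subunit PPP1R15A at 0.51 and the ER kinase EIF2AK3 at 0.38.

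Genes of the ID family and of bone morphogenetic protein (BMP) signalling gave some of the largest falls. BMPs bind BMPR receptors, activate SMAD1, SMAD5 and SMAD9, and raise ID genes and the inhibitory SMAD6 and SMAD7, while follistatin and other antagonists hold ligands back. Of 39 tested genes 8 were higher and 16 lower (median -0.18), and 9 of the 16 fell at least 2-fold. Without replicate 2 or replicate 3 at 500 nM, or with no filter, 5 were called higher, and DESeq2 called 4 higher. The GC-rich SMAD letters GGCGCC lay in 2 of 15 promoter windows of genes called lower and in 4 of 8 of genes called higher. Their share over all tested protein-coding genes with a window was 31.5%. ID1, an inhibitor of basic helix-loop-helix factors, had 282, 294 and 311 normalised reads at 500 nM and 3070, 2891 and 3159 with DMSO (log2 fold change -3.36 ± 0.04, adjusted p = 2.01e-90). ID3 had 130, 190 and 187 against 1881, 1793 and 1821, and ID2 had 36.9, 31.2 and 27.5 against 199, 218 and 193. In each ID gene the groups were far apart, and ID3 in replicate 1 was below the other libraries at 500 nM. ID4, the scarcest of the family, had 6.15, 2.83 and 6.88 at 500 nM and 18.5, 33.4 and 34.2 with DMSO.

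The other targets moved likewise. SMAD6 had 99.4, 90.7 and 83.7 normalised reads at 500 nM and 211, 242 and 225 with DMSO, and SMAD7 had 120, 96.3 and 116 against 281, 301 and 294. The helix-loop-helix factor ATOH8 had 83.0, 84.1 and 92.9 against 450, 382 and 452. All 3 fell by more than 2-fold. Of the ligands, BMP6 had 168, 194 and 194 at 500 nM and 283, 283 and 343 with DMSO, while BMP4, the most abundant, had 5313, 5272 and 5048 against 4382, 4210 and 4113, so the ligands did not share a direction. The receptor BMPR2 had 961, 974 and 925 at 500 nM and 1221, 1465 and 1326 with DMSO. FST, follistatin, rose to 124, 113 and 110 at 500 nM, against 34.8, 21.7 and 33.1 with DMSO (1.95 ± 0.18). The plot of normalised reads in each library shows the 3 ID genes, SMAD6 and FST beside genes of the other groups.

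**Figure D4:**
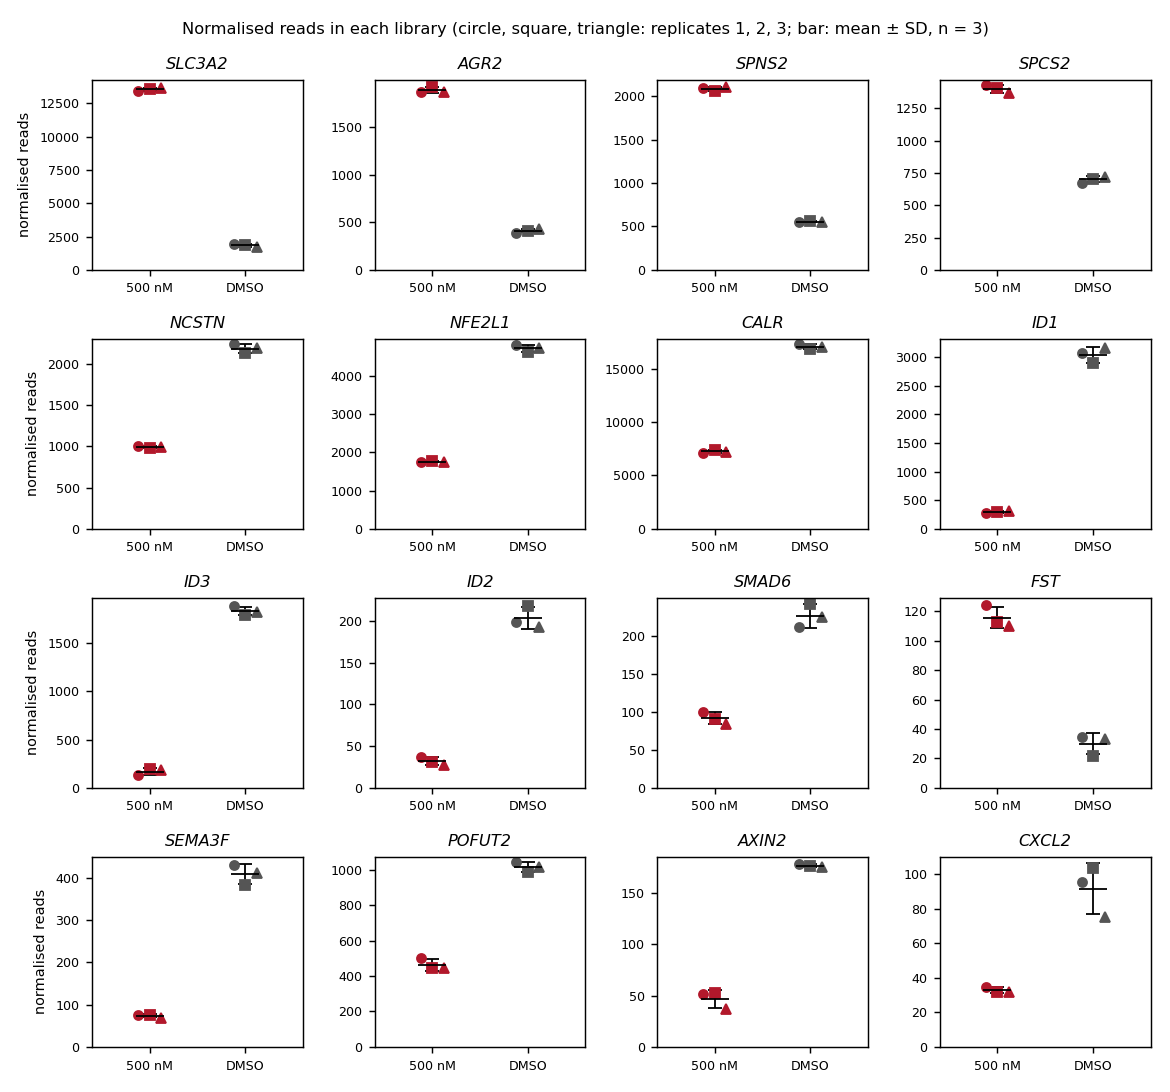
Normalised reads of 16 genes in each library at 500 nM ZJ-101 (red, left) and DMSO (grey, right), from 0, with the mean and SD (n = 3). The 2 groups are separate in each panel, with SLC3A2, AGR2, SPNS2, SPCS2 and FST higher at 500 nM and the other 11 genes lower.

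Wnt, Notch and guidance genes each held members of both directions. In the Wnt pathway 7 of 36 tested genes were higher and 9 lower (median 0.00), beside 16.2% each way over all tested genes. AXIN2, a feedback inhibitor and common target of the pathway, had 51.2, 52.0 and 36.7 normalised reads at 500 nM and 178, 176 and 175 with DMSO. The secreted antagonist DKK1 had 1219, 1220 and 1197 against 570, 591 and 561. WLS, the carrier that takes Wnt ligands to the surface, had 2005, 2069 and 2113 against 1114, 1035 and 1131. Among these picked genes the target fell while the antagonist and the carrier rose. The related receptors ROR1 and ROR2 were opposite as well: ROR1 rose (0.53) and ROR2 fell to 4.10, 2.83 and 1.15 at 500 nM, against 28.3, 22.6 and 16.1 with DMSO.

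In the Notch pathway 8 of 29 genes were higher and 8 lower (median -0.11), with 5 lower in DESeq2. The receptor NOTCH2 had 4411, 4383 and 4472 normalised reads at 500 nM and 2692, 2731 and 2558 with DMSO, and the fringe sugar transferases LFNG (0.67) and MFNG (1.05) rose. The ligand JAG2 had 226, 254 and 239 against 577, 595 and 557, and the target HES1 had 86.1, 94.5 and 97.5 against 160, 182 and 178. ADAM10, which sheds NOTCH before gamma-secretase acts, had 1301, 1337 and 1302 against 2139, 2267 and 2191. Among these picked genes JAG2, ADAM10 and HES1 were thus lower, with the receptor NOTCH2 higher. Of 25 semaphorins, plexins and neuropilins 2 were higher (PLXNB2 and PLXNB3) and 14 lower (median -0.29). SEMA3F, a secreted guidance ligand, had 75.8, 76.5 and 68.8 at 500 nM and 429, 383 and 412 with DMSO, and its relative SEMA4F had 103, 93.5 and 84.9 against 174, 194 and 177. Eph receptors gave 6 higher, all of them receptors, and 3 lower of 14 genes (median -0.05), with EPHB6 at 65.6, 56.7 and 88.3 against 27.2, 16.3 and 24.1.

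Receptors of the G protein-coupled and tyrosine kinase families moved both ways. Of 57 tested G protein-coupled receptors and their regulators 21 were higher and 15 lower (median 0.03), beside 16.2% each way over all tested genes. When only genes with a mean of at least 50 were tested, 9 were lower. F2RL3, a thrombin receptor, had 165, 164 and 147 normalised reads at 500 nM and 24.4 to 27.1 with DMSO, and the oxytocin receptor OXTR had 124, 120 and 138 against 26.1, 37.0 and 31.1. The endothelin receptor EDNRA fell to 11.3, 18.9 and 18.3, against 37.0, 34.3 and 40.2 with DMSO. Of 39 receptor tyrosine kinases and growth factors 16 were higher and 6 lower (median 0.19). KDR, a receptor best known from endothelium, had 76.8, 86.9 and 81.4 at 500 nM and 32.7, 38.8 and 30.1 with DMSO. It is 1 of 10 endothelial markers, of which 4 were tested and 3 called higher and 1 lower. Their summed level was 1355 to 1372 normalised reads at 500 nM and 837 to 911 with DMSO, with 2 to 4 of the 10 at 0 in a library at 500 nM and 2 to 3 with DMSO, and their part in the result was not tested.

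Of 49 chemokines, interleukins, TNF family members and their receptors, 6 were higher and 22 lower (median -0.19). The neutrophil chemokine CXCL2 had 34.8, 32.1 and 32.1 normalised reads at 500 nM and 95.8, 104 and 75.3 with DMSO, and CXCL1 (-0.86), CXCL3 (-1.79) and IL1B (-1.06) fell with it. TNFSF10, the death ligand TRAIL, had 640, 638 and 573 against 1215, 1233 and 1245. CXCL16, a chemokine tethered to the membrane, was among the 6 that rose (0.54). Of 26 genes of antigen presentation and immune ligands 4 were higher and 11 lower (median -0.23), with the invariant chain CD74 at 6289, 6431 and 6385 against 12085, 11068 and 11797. PVR, a ligand of the lymphocyte receptors CD226 and TIGIT, rose to 1015, 1039 and 1031, against 674, 616 and 638 with DMSO. Of 44 sheddases and matrix proteases with their inhibitors, 5 were higher and 20 lower (median -0.25). FURIN, the proprotein convertase of the Golgi, had 696, 721 and 664 at 500 nM and 1358, 1274 and 1297 with DMSO, and the secreted protease HTRA3 had 125, 147 and 138 against 444, 472 and 414.

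Lipid genes outside sterol synthesis split by branch. Of 34 sphingolipid and sphingosine 1-phosphate (S1P) genes 15 were higher and 7 lower (median 0.10). SPNS2, which exports S1P (chromosome 17, 4498881 to 4539035), had 2091, 2058 and 2108 normalised reads at 500 nM and 549, 563 and 556 with DMSO. SPHK1, the kinase that makes S1P, had 168, 158 and 155 against 233, 246 and 253, and the receptor S1PR2 had 47.1, 49.1 and 40.1 against 67.5, 73.2 and 66.3. The exporter rose where the kinase and the receptor fell. Among ceramide synthases CERS5 rose (0.58), and CERS6 rose (0.56, 43.8% of whose exons overlap a gene on the opposite strand). Of 31 genes of phospholipid synthesis and lipid droplets 14 were higher and 6 lower (median 0.16). LIPG, a secreted phospholipase, had 191, 176 and 206 at 500 nM and 1159, 1162 and 1131 with DMSO, and DGAT2, a triglyceride synthase, had 89.1, 77.5 and 87.1 against 198, 213 and 195. Its unrelated counterpart DGAT1 rose (0.36). Targets of the sterol receptor LXR and cholesterol carriers gave 7 higher and 11 lower of 25 (median -0.02). ABCG1, a cholesterol exporter, had 250, 280 and 283 against 75.1, 71.4 and 76.3, and the exporter ABCA1 rose as well (0.69), while the sterol carrier STARD4 (-0.98) and the lipoprotein receptor LRP8 (-0.76) fell.

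Genes of the cytoskeleton and its control moved both ways. PLEKHG4B, an exchange factor, had 7.17, 9.45 and 6.88 normalised reads at 500 nM and 140, 154 and 132 with DMSO. The atypical GTPases RND1 and RHOV fell too: RHOV had 5.12, 5.67 and 3.44 at 500 nM and 32.7, 44.3 and 40.2 with DMSO. ARHGEF28, another exchange factor, had 1033, 1012 and 1049 against 501, 556 and 494. Of 27 keratins, plakins and other intermediate filament genes 13 were higher and 5 lower (median 0.11). The plakin PPL had 1144, 1114 and 1139 at 500 nM and 495, 473 and 480 with DMSO, whereas desmoplakin (DSP), its relative, had 1448, 1403 and 1549 against 2775, 2626 and 2569. Tubulins, kinesins and dyneins gave 13 higher and 3 lower of 43 (median 0.02), with MAP2 (1.14) and MAP7 (0.81), which bind microtubules, changed most. The call of MAP7 was lost without replicate 2 at 500 nM (0.62).

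Among transcription factors, 14 of 49 of the AP-1, ETS, KLF and immediate early kind were higher and 8 lower (median 0.12). ATF3, a stress-induced factor, had 91.2, 69.9 and 83.7 normalised reads at 500 nM and 45.7, 48.8 and 35.2 with DMSO, and JUNB had 413, 380 and 458 against 711, 642 and 677. SNAI1, a repressor of E-cadherin, had 14.3, 15.1 and 10.3 against 125, 142 and 125. Of 40 nuclear receptors and circadian genes 5 were higher and 18 lower (median -0.15), beside 16.2% each way over all tested genes. BHLHE40, a circadian repressor, had 844, 826 and 830 at 500 nM and 1436, 1366 and 1405 with DMSO, and PER1 and PER3 fell by 0.50 and 0.26 on the log2 scale, while CLOCK, of the activating arm, rose (0.25). PER2 was called lower with all libraries (-0.35), a call lost when replicate 2 or 3 of DMSO or any library at 500 nM was left out (-0.28 to -0.37). The call was also lost in DESeq2, with the compared groups alone, with no filter and without the 3 libraries rich in fibroblast transcripts.

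Of 55 DNA repair genes 20 were higher and 2 lower (median 0.17), with 1 lower when replicate 2 or 3 of either group was left out and 13 higher in DESeq2. XRCC2, of homologous recombination, had 175, 202 and 180 normalised reads at 500 nM and 109, 135 and 135 with DMSO. Of 56 genes of ribosome biogenesis 19 were higher and 1 lower (median 0.10). The helicase DDX21 had 1496, 1555 and 1553 against 1165, 1283 and 1232, and UBTF, a factor of RNA polymerase I, was the 1 that fell (-0.23); without replicate 2 at 500 nM, 2 were lower. Of 52 genes of the nuclear pore and transport 15 were higher and 3 lower (median 0.09), and the highest were NUP210 (0.82) and NDC1 (0.62), pore proteins that span the nuclear membrane. The Krebs (TCA) cycle, pentose phosphate and redox genes gave 5 higher and 20 lower of 57 (median -0.03), with PRDX4, the peroxiredoxin of the ER, at 627, 628 and 618 against 1031, 949 and 1026. Without replicate 3 of DMSO, 3 of those 57 were higher.

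Ion transport held many genes that rose. Of 50 tested potassium, sodium, chloride and proton transport genes 26 were called higher and 10 lower (median 0.20). The a subunits of the proton pump, large proteins with many membrane spans, were all called higher. ATP6V0A1 had 1309, 1294 and 1311 normalised reads at 500 nM and 476, 495 and 490 with DMSO. ATP6V0A2 had 448, 403 and 453 against 282, 249 and 286. ATP6V0A4 had 189, 180 and 166 against 46.8, 42.5 and 44.2, and TCIRG1, the fourth, rose least (0.25). No library at 500 nM fell within the DMSO range in these genes. The accessory subunit ATP6AP1, a single-span glycoprotein on the lumenal side, fell to 1478, 1417 and 1413, against 2461, 2251 and 2444 with DMSO. The cotransporter SLC12A2 (0.77), the borate and proton transporter SLC4A11 (1.19) and the volume-regulated channel subunit LRRC8D (0.60) rose, while the epithelial sodium channel subunit SCNN1A fell to 765, 818 and 782, against 1518, 1464 and 1551 with DMSO. The reduced folate carrier SLC19A1, with many spans, did not follow the pattern of its class: it had 804, 831 and 771 at 500 nM and 2993, 2849 and 3116 with DMSO (log2 fold change -1.89).

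The plot of gene lists sets these groups beside each other. Proteasome genes, sugar transferases and semaphorins stand at the lower end, and transporters of amino acids and genes of the ER translocon at the upper end. Without the 3 libraries rich in fibroblast transcripts, 14 of 22 amino acid transporters and 28 of 43 translocon genes were higher, and 19 of 40 sugar transferases and 21 of 38 proteasome genes lower. Of the matrix genes, COL6A3 had 194, 58.6 and 72.2 normalised reads at 500 nM and 571, 471 and 452 with DMSO, a log2 fold change of -2.39 that became -2.91 without them, while FN1 (-0.59 and -0.62 without them), AGRN (-1.13 and -1.14) and LAMB1 (-1.29 and -1.27) moved little.

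**Figure D5:**
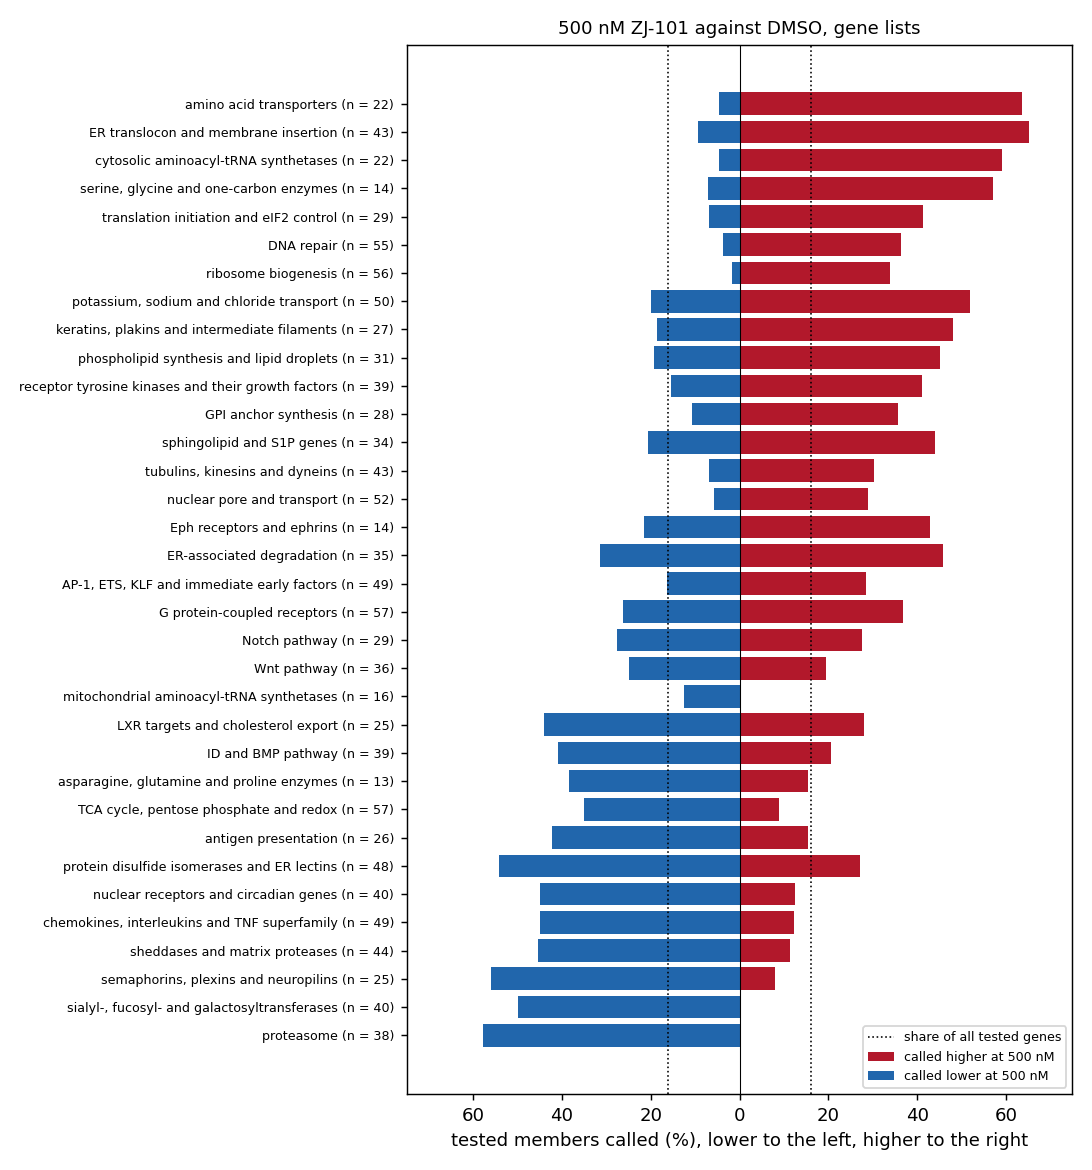
Share of tested members (%) called higher (right, red) and lower (left, blue) at 500 nM ZJ-101 against DMSO in each gene list, with n the number tested and dotted lines at the shares of all tested genes (16.2% each way). Amino acid transporters and the ER translocon lead at the top, and the proteasome and the sialyl-, fucosyl- and galactosyltransferases, with no red bar, stand at the bottom.

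The nearest dose, 50 nM, was compared directly with 500 nM in the same fit, without DMSO. Of the tested genes 5.65% were called higher at 500 nM than at 50 nM (861) and 7.04% lower (1073). ID1 had 282, 294 and 311 normalised reads at 500 nM and 1538, 1582 and 1547 at 50 nM (log2 fold change -2.39, adjusted p = 4.54e-76), and ID3 (-2.69) and ID2 (-1.65) were lower as well. SEMA3F had 75.8, 76.5 and 68.8 at 500 nM and 206, 201 and 252 at 50 nM. The collagen receptor MRC2 had 465, 388 and 396 against 1380, 1432 and 1430. These genes were thus well below their level at 50 nM. Higher at 500 nM than at 50 nM were F2RL3 (1.24), AGR2 (1.10), ABCG1 (1.03), ATP6V0A4 (1.01) and ATP6V0A1 (0.94), and SLC3A2 had 13465 to 13680 at 500 nM against 8243 to 8284 at 50 nM. GDF15, a stress cytokine, had 1492, 1436 and 1526 at 500 nM and 774, 813 and 817 at 50 nM.

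Some genes called against DMSO were not called between these doses. SEC61A1 had 5444, 5515 and 5459 normalised reads at 500 nM and 5660, 5454 and 5578 at 50 nM (log2 fold change -0.02, adjusted p = 0.72), and SSR3 (0.08, adjusted p = 0.294) and DKK1 (-0.11, adjusted p = 0.157) were not called either. B4GALT5 had 1436, 1563 and 1478 at 500 nM and 1488, 1578 and 1489 at 50 nM. RHOV, at 5.12, 5.67 and 3.44 at 500 nM and 1.88, 9.57 and 7.09 at 50 nM, overlapped between the doses. Of 43 genes of the ER translocon and membrane insertion 11 were higher at 500 nM than at 50 nM (5.65% of all tested genes were) and 2 lower, and of 40 sugar transferases 9 were lower (7.04% of all tested genes were). EMC1 and NCSTN, by contrast, were lower at 500 nM than at 50 nM, with log2 fold changes of -0.81 and -0.80. HSPA5 had 8407, 8439 and 8278 at 500 nM and 11506, 11694 and 11717 at 50 nM, and LAMB1, a laminin chain, had 547, 557 and 570 against 1547, 1561 and 1499.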

How the data were processed

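Poly(A) RNA of pooled spheroids was sequenced in paired ends. The authors ran HISAT2 (hg38), htseq-count per gene and DESeq2 scaling on a Galaxy server. Versions, the strand setting and the annotation release are not given in the sources used here. The authors deposited a signal table of counts divided by the size factor of each library. Of its values, 100% were whole reads within 0.001 of a multiple of 1 step. Comparison tables that the authors deposited (log2 fold change, score, p-value) were not used. Libraries held 7773325 to 10065633 reads in genes (median 9108870), which limits what scarce genes can show.

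Groups came from the labels, which name no batch and treat each plate as a biological replicate. The 15233 genes were tested as log2 of the value plus 1 in limma 3.58.1 (trend, robust), with the 5 groups in 1 fit, two-sided, with Benjamini-Hochberg adjustment over all genes and a threshold of 0.05. The contrast of 500 nM and 50 nM came from the same fit. Lists were described by counts and medians.

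The members and lists were chosen with earlier results of these data known. The naming rule took the 25 highest and the 25 lowest called log2 fold changes (mean of at least 100, groups separate), the 10 largest gains and losses in reads, up to 6 called genes per list with the smallest p and those against the majority, the 10 and 10 largest changes against 50 nM, and markers. Of the 194 genes with values in the text, 57 lie outside it and were picked with their values in view. Not every gene of the rule is described, and some subunits and lists are not reported here.

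Positions and proteins came from GENCODE release 44 on hg38 (13298 tested symbols with a position), and promoters from RefSeq on GRCh38.p14. Alternatives were the recovered reads in edgeR 4.0.16 or in DESeq2 1.42.0, TMM scaling, the compared groups alone, no filter, a mean of at least 50, a pseudocount of 5, a replicate block, leaving out each library, and leaving out the 3 libraries with fibroblast transcripts. R was 4.3.3 and Python 3.11.15 (matplotlib 3.10.9, scipy 1.17.1, pandas 2.3.3, numpy 2.4.6).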

Additional observations from a re-analysis of the deposited data

How the results depend on the processing

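The 15 alternatives kept the counts of called genes within 1.5 times those given. Higher genes numbered 1983 with DESeq2 and 2456 with edgeR, and lower genes 1949 and 2366. Leaving out 1 library at a time gave 2167 to 2274 higher and 2200 to 2255 lower. The number of genes changed at least 2-fold, 410 in all, was 703 with no filter and 233 with a mean of at least 50, where fewer scarce genes were tested. Against 50 nM, DESeq2 called 649 higher and 772 lower. The share of genes at least 2-fold lower with a hydrophobic N-terminus, 56.0%, was 41.2% with a hydropathy of at least 2.2, and 29.8% over all genes called lower, of any size. Replicate numbers are shared by the groups but did not pair the libraries (correlations of same-numbered libraries 0.002, 0.039 and -0.026), and with a replicate block 2481 genes were higher and 2477 lower. Of the 181 called genes named, none changed direction in any alternative, and 7 lost their call in at least 1. Most called members of a list pointed the same way in every alternative in 32 of the 34 lists plotted, the exceptions being the Notch pathway, evenly split, and mitochondrial tRNA synthetases. Reads per library limit the scarcest genes named, such as ROR2 and ID4, to a few reads at 500 nM.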
